A study of Mus musculus with 12 samples.

Results

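The passage from mouse embryonic stem cells (ESC) to neural progenitor cells (NPC) was followed in cells that carried a short hairpin RNA (shRNA) against Jarid1b in both states. It rests on 6 of the 12 arrays of the study, 3 of knockdown ESC and 3 of knockdown NPC, and on 18784 genes, each read from 1 probe set (the one with the highest mean where a gene had several). The change of a gene is its mean in knockdown NPC minus its mean in knockdown ESC on the log2 scale, so that a change of 1 is 2-fold. The other 6 arrays, 3 of ESC and 3 of NPC with a scrambled control shRNA, are used only to show where the knockdown cells differed. All 4 groups came from E14TG2a.4, a mouse ESC line grown without feeder cells on gelatin in serum with LIF. Lentivirus made from the PLKO.1 vector was left on the ESC for 16 h and puromycin selection began 48 h after transduction. The control groups therefore went through the same transduction and selection, and differ by the scrambled in place of the Jarid1b sequence. The labels name 1 Jarid1b construct, so that an effect of losing Jarid1b and an unrelated effect of this hairpin cannot be told apart. NPC were made by the protocol of Bibel and colleagues. The labels do not state the day of collection. Experiments are described as triplicates, and whether these were separate transductions or cultures is not said, so the p-values reflect array-to-array spread alone, and that spread could be technical.

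Embryonic stem cells are held in the pluripotent state by a network of transcription factors around Oct4 (Pou5f1), Sox2 and Nanog. On the way to neural tissue this network shuts down, Sox and Pax factors of the neural tube come up, and proneural factors such as the neurogenins then drive cells out of division and into neuronal differentiation. The cited protocol lets stem cells form floating aggregates and adds retinoic acid, a vitamin A derivative that turns on Hox genes in order along their clusters and gives neural cells a hindbrain and spinal cord character. Jarid1b, listed under its current symbol Kdm5b, codes for an enzyme that takes methyl groups off histone H3 at lysine 4 (H3K4), whose methylation marks active promoters and enhancers.

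Kdm5b was lower than in control in both knockdown states, but stayed well above the array medians (7.7 to 7.79). Its log2 level was 10.64, 10.90 and 10.50 in the 3 knockdown ESC arrays and 10.38, 10.48 and 10.54 in the knockdown NPC arrays, against 12.25, 12.47 and 12.50 in control ESC and 11.24, 11.15 and 11.30 in control NPC. Every knockdown array lay below every control array, and the 2 knockdown states overlapped. From ESC to NPC Kdm5b changed by -0.21 ± 0.11 (standard error, SE; n = 3 arrays a group; adjusted p = 0.128) in knockdown cells and by -1.18 in control cells. The gap to control was therefore narrower in NPC than in ESC. This difference of the 2 changes, 0.96 ± 0.16, had an adjusted p of 0.0172, and of up to 0.0591 without control ESC replicate 3 or knockdown NPC replicate 2.

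Of the 18784 genes, 9164 (48.8%) passed the test between knockdown ESC and knockdown NPC (limma, adjusted p under 0.05). There were 4469 genes higher in NPC, 23.8% of those tested, and 4695 lower, which is 25%. Changes of at least 2-fold numbered 1573 upward (8.37%) and 1181 downward (6.29%), and those of at least 16-fold 61 and 30. These percentages are the background for the gene groups that follow, and a group with shares near them does not stand apart from the array as a whole. The lists behind these groups were chosen with earlier results of these data known, so their shares are descriptions and no test. Genes named below as not passing the test were mostly chosen after their values were seen, as textbook members of their group. The median change over all genes was -0.07. Correlations across genes were 0.996 to 0.997 between arrays of one knockdown state and 0.927 to 0.934 between the 2 states.

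The marker genes followed the labels. The 6 pluripotent stem cell markers (Pou5f1, Nanog, Zfp42, Esrrb, Klf4 and Dppa5a) averaged 12.32 to 12.37 in the knockdown ESC arrays and 8.29, 8.07 and 7.23 in knockdown NPC replicates 1, 2 and 3. The 8 neural progenitor markers went the other way, from 8.45 to 8.60 in ESC to 10.79 to 10.90 in NPC, and all 8 passed the test. Of 6 neuronal markers 5 were higher and 1 lower, and their average moved from 8.44 to 8.57 up to 10.31 to 10.40, so that the arrays labelled NPC also held neuronal RNA. Astrocyte and oligodendrocyte markers stayed between 6.19 and 6.45 in all 6 arrays, near the lower quartile of the arrays (5.84 to 6.11). In RNA from a mixed culture, fewer cells of a type and less RNA per cell cannot be told apart. Replicate 3 of the knockdown NPC had the lowest stem cell marker average, and its part in the results below was not tested beyond leaving it out.

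**Figure D1:**
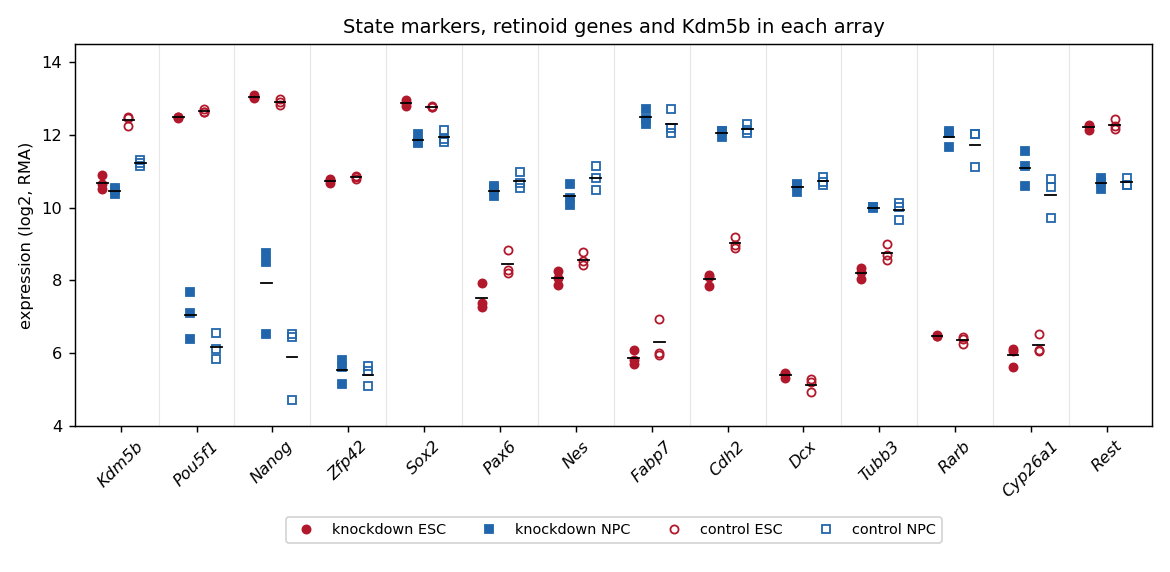
Log2 expression (y axis) of 14 marker genes in each of the 12 arrays. Filled symbols are knockdown and open symbols control arrays, circles ESC and squares NPC, and short bars are means of 3 arrays. Kdm5b lay between 10.38 and 10.90 in both knockdown states, Pou5f1, Nanog and Zfp42 were low in NPC, and Fabp7, Dcx and Rarb were high there.

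Every measured gene of the pluripotency list fell, and by at least 2-fold: 35 of 35, with a median change of -3.74, against 6.29% of all genes. The deepest fall of any gene on the array was that of Tdgf1, the Nodal co-receptor Cripto, whose level was 13.22, 13.18 and 13.20 in ESC and 7.59, 7.25 and 6.54 in NPC, a change of -6.07 ± 0.19 or 67.1-fold. Pou5f1 went from 12.49, 12.47 and 12.50 to 7.67, 7.11 and 6.37, a change of -5.43 ± 0.25. The ESC arrays were nearly identical for both genes while the NPC arrays spread over more than 1 log2 unit, with replicate 3 lowest, and the states were far apart. Tcl1, an Akt co-activator, fell by 5.53, the zinc finger gene Zfp42 (Rex1) by 5.21 and the orphan nuclear receptor Esrrb by 5.05. Klf4 fell less, by 2.83.

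Nanog had the largest spread of the 35 genes among the NPC arrays. Its level was 13.09, 13.02 and 13.05 in knockdown ESC and 8.74, 8.50 and 6.53 in knockdown NPC. Replicates 1 and 2 of the NPC thus kept about 2 log2 units more Nanog RNA than replicate 3, while all 3 lay over 4 units below the ESC. The change was -5.13 ± 0.52 (adjusted p = 2.34e-06). Sox2, which neural progenitors share with stem cells, fell the least of the 35, by 1.01 ± 0.10, from 12.96, 12.80 and 12.87 to 11.77, 12.03 and 11.81.

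The promoter of Nanog is shown because it holds the composite Oct-Sox motif, the paired site on which Oct4 and Sox2 are known to bind side by side. The 250 bases before a start site of Nanog (RefSeq, GRCm38.p6, chr6:122707239-122707488, + strand) read as follows, 5′ to 3′ with the motif in capitals:
Nanog promoter: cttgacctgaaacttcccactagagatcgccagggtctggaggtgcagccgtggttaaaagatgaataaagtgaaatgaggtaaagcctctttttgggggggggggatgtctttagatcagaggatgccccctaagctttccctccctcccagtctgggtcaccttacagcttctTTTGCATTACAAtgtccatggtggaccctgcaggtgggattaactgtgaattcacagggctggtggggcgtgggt
The motif (TTTGCAT, any base, then ACAA), searched on both strands, ended 63 bases before that start. It was in such a window of 1 of 23 pluripotency genes with a promoter in the table and of 9 of 27025 genes in all (0.0333%). Measured genes with the motif numbered 6, of which 2 were higher and 3 lower in knockdown NPC, against 23.8% and 25% of all genes. A match is a stretch of letters and was not measured as a binding site.

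Genes outside the lists fell as deeply. They were Lrrc2, a leucine-rich repeat gene (-5.11), Morc1, a silencer of transposons in the male germ line (-4.87), the steroid dehydrogenase gene Hsd17b14 (-4.84), Accsl (-4.82), the thyrotropin-releasing hormone gene Trh (-4.78) and the exchange factor gene Mcf2 (-4.70). Their falls were 26.1-fold to 34.5-fold, and the ESC and NPC arrays did not overlap for any of them.

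Genes of the formative and primed states, which lie between naive pluripotency and the germ layers, did not move as a block. Of 12 measured, 4 fell by at least 2-fold and 1 rose. Otx2, which marks the primed epiblast and later the forebrain, fell 17.3-fold (-4.11 ± 0.19), and the ETS factor gene Etv5 fell by 2.27. Sall2 rose by 2.71 ± 0.18. Fgf5, the textbook marker of primed cells, had a change of 0.05.

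Epithelial adhesion genes mostly fell, while the cadherin of neural tissue rose. E-cadherin (Cdh1) read 12.32, 12.25 and 12.19 in ESC and 10.24, 9.99 and 9.86 in NPC, a change of -2.22 ± 0.14. N-cadherin (Cdh2) read 8.09, 8.14 and 7.85 and then 11.94, 12.10 and 12.11, a change of 4.02 ± 0.11 or 16.3-fold. The 2 states did not overlap for either cadherin. Of 13 epithelial adhesion genes 9 fell, 5 of them by at least 2-fold, with plakoglobin (Jup) at -2.18. The claudin genes Cldn3 (0.55) and Cldn7 (0.52) rose, the latter not without knockdown ESC replicate 3 or NPC replicate 2 (adjusted p up to 0.0634).

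Neural progenitor and radial glia genes rose almost as a whole. Of 34 measured, 31 were higher and 26 by at least 2-fold, against 8.37% of all genes, with a median change of 2.28. Fabp7, the brain lipid-binding protein of radial glia, had the largest rise of any gene: from 5.81, 6.09 and 5.69 to 12.72, 12.29 and 12.43, a change of 6.62 ± 0.25 or 98.1-fold. All NPC arrays stood more than 6 log2 units over all ESC arrays. Meis2, a homeodomain partner of Hox and Pax proteins, rose by 5.12 ± 0.31 and the endothelin receptor gene Ednrb by 5.11 ± 0.17.

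The classical progenitor markers rose less. Pax6, the neural tube and eye master regulator, read 7.94, 7.38 and 7.26 and then 10.31, 10.52 and 10.58 (2.94 ± 0.20). Nestin (Nes) read 8.25, 7.88 and 8.07 and then 10.64, 10.08 and 10.26 (2.26 ± 0.18). Both separated the states without overlap. Vimentin (Vim), already at 12.52 to 12.56 in ESC, rose by 0.95, the surface antigen gene Prom1 by 1.93, the glutamate transporter gene Slc1a3 by 1.75 and the Notch effector gene Hes5 by 1.25. Sox1, the earliest neural plate Sox gene, rose by 0.87 ± 0.22 (8.69, 9.01 and 8.88 to 9.37, 10.21 and 9.62; adjusted p = 0.00436). The neural cell adhesion gene Ncam1 had a change of 0.01 and did not pass.

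Proneural genes and their Notch ligands, which mark cells leaving the progenitor state, were up as well. Of 28 measured, 22 were higher, 18 by at least 2-fold, and the median change was 1.85. Neurod4, a bHLH factor that follows the neurogenins, rose from 5.63, 5.71 and 5.14 to 10.05, 10.65 and 9.95 (4.72 ± 0.19, 26.4-fold). Nhlh1 and Ebf3, both markers of newborn neurons, rose by 4.16 each, Sox11, an activator of neuronal genes, by 4.15, and Neurog2 by 2.35 ± 0.16. Neurog3, the neurogenin of the endocrine pancreas, read 6.19, 6.23 and 6.11 in ESC and 5.45, 6.05 and 5.51 in NPC (-0.51). Its adjusted p of 0.0233 rose to as much as 0.103 when knockdown ESC replicate 1 or 2 or NPC replicate 1 or 3 was left out.

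Of 46 genes of the neuronal cytoskeleton, RNA binding and synapse, 29 were higher and 22 by at least 2-fold. Doublecortin (Dcx), the microtubule protein of migrating neurons, rose 35.8-fold, from 5.33, 5.45 and 5.41 to 10.42, 10.61 and 10.64. Map2 rose by 2.44 ± 0.13, the neuronal tubulin gene Tubb3 by 1.80 ± 0.14, the splicing factor gene Nova1 by 2.92, Scg3 of the secretory granule by 2.92 and the vesicle fusion gene Snap25 by 1.95. Among the transmitter genes of the list Gad2, which makes GABA, rose by 1.11. The vesicular transporter genes of glutamate, GABA and acetylcholine, Slc17a6 (-0.02), Slc17a7 (-0.10), Slc32a1 (0.24) and Slc18a3 (-0.22), and Chat (-0.17) did not pass the test. Stathmin-2 (Stmn2), a growth cone protein and textbook neuronal gene, was 1 of 3 that fell, beside Syn1 (-0.47) and Celf4 (-0.36): it read 12.64, 12.32 and 12.44 in ESC and 10.93, 10.98 and 10.94 in NPC, a fall of 1.52 ± 0.10.

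Axon guidance genes also rose together. Of 34 measured, 30 were higher, 24 by at least 2-fold, and none was called lower. Epha3, a receptor of the ephrin-A ligands, rose 52.8-fold, from 5.51, 5.61 and 5.15 to 11.28, 11.05 and 11.11. The netrin receptor gene Dcc rose by 4.30 ± 0.11, the ephrin gene Efnb2 by 4.06 ± 0.21 and the semaphorin gene Sema6a by 3.18 ± 0.21. Other genes among the 12 largest rises were Chrna3, a nicotinic acetylcholine receptor subunit (5.72), Tfap2b, an AP-2 factor of neural crest and dorsal interneurons (5.55), the retinal determination gene Dach1 (5.41) and the integrin gene Itgb8 (5.26). Ndnf (4.93) and Antxr2 (4.92), outside all lists, rose about as far.

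**Figure D2:**
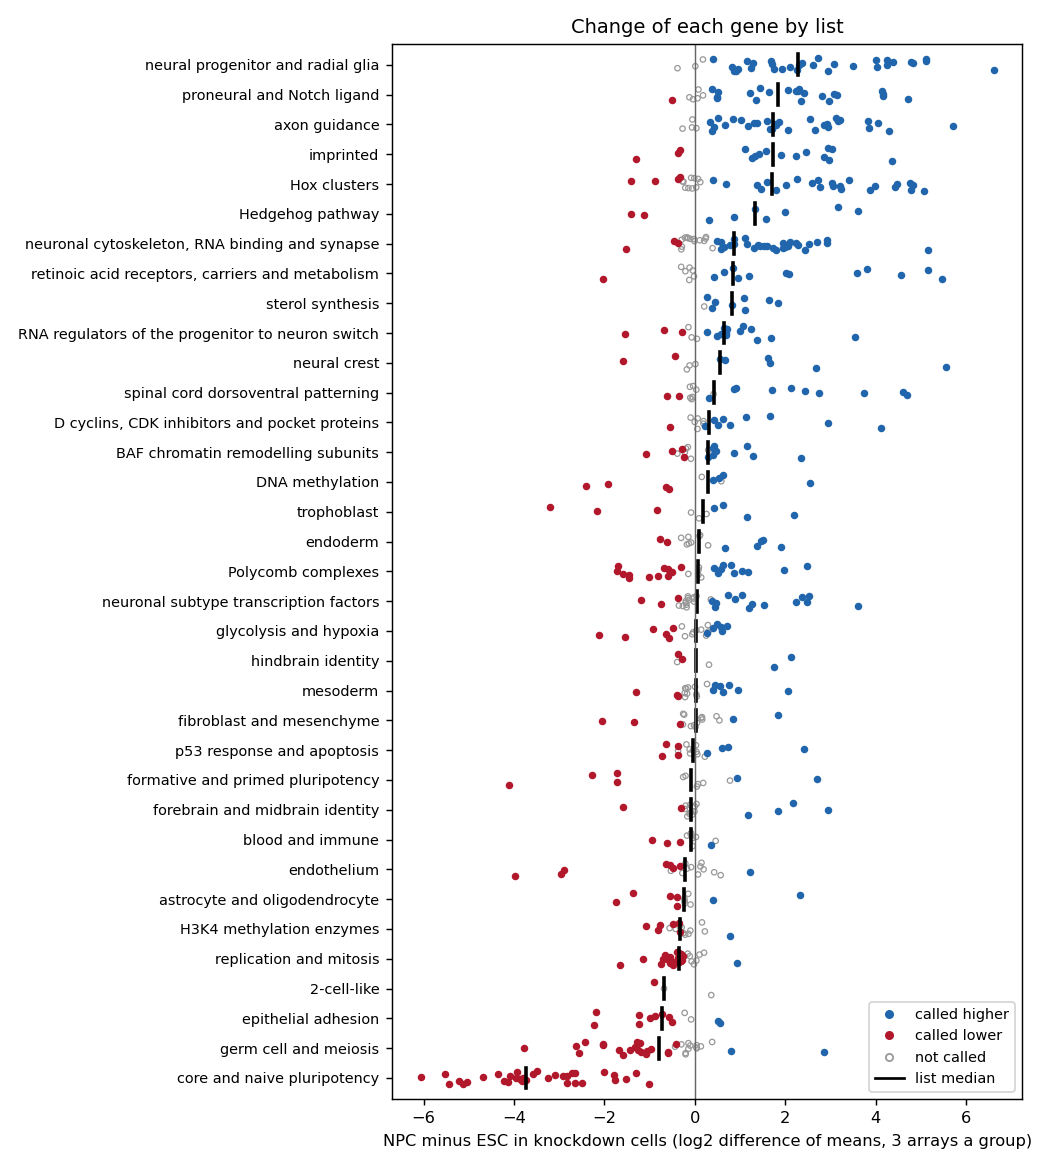
Change of every measured gene, knockdown NPC minus knockdown ESC (x axis, log2), in 35 gene lists (rows, ordered by median). Blue points were called higher, red points lower and open points were not called; black bars are list medians. The pluripotency list lies wholly below 0, at a median of -3.74, and the progenitor list has the highest median, 2.28.

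Retinoic acid genes rose, led by those that the hormone is known to induce directly. Of 19 receptors, carriers and enzymes 12 were higher, 8 of them by at least 2-fold. The receptor gene Rarb read 6.46, 6.50 and 6.48 in ESC and 12.05, 11.66 and 12.11 in NPC, a change of 5.46 ± 0.20 or 44.1-fold. Cyp26a1, the enzyme that breaks retinoic acid down, read 6.12, 6.06 and 5.62 and then 11.55, 10.59 and 11.16, a change of 5.16 ± 0.28 or 35.9-fold. For both genes the 2 states were about 5 log2 units apart.

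The promoters of these 2 genes are shown because each holds the DR5 element, a direct repeat of 6-base half-sites with a 5-base spacer on which retinoic acid receptors are known to sit. The windows are the 250 bases before the start in RefSeq, GRCm38.p6, at chr14:16575477-16575726 on the - strand for Rarb and at chr19:37697558-37697807 on the + strand for Cyp26a1, written 5′ to 3′ along the gene with the element in capitals:
Rarb promoter: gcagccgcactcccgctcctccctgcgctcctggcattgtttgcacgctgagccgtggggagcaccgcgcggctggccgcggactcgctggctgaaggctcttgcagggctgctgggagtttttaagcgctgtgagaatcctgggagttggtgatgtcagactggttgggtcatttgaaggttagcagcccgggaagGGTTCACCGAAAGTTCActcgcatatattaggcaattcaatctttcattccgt
Cyp26a1 promoter: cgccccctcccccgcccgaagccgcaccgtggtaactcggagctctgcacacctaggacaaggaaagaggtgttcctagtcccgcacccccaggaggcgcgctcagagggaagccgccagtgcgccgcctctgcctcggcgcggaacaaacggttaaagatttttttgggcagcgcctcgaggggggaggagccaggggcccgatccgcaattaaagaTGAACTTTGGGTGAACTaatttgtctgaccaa
The element ended 36 bases before the start in Rarb and 15 bases before it in Cyp26a1, where it runs on the opposite strand. Over all promoters, both strands searched, 28 of 27025 genes held a DR5 element (0.104%), as did 2 of 16 genes of the retinoic acid list and 0 of 22 Hox genes with a window. Of 10 measured genes with the element 4 were higher and 2 lower in knockdown NPC, against 23.8% and 25% of all genes. These genes are too few to set apart from that background.

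The binding proteins differed in range. Crabp2, which carries retinoic acid to its receptors, read 7.66, 7.50 and 7.83 and then 12.24, 12.21 and 12.20 (4.55 ± 0.14). Crabp1 stood at 11.74, 12.10 and 12.29 already in ESC and reached 13.26, 13.23 and 13.22 (1.19 ± 0.16). Rarg, the receptor abundant in stem cells, fell from 10.76, 11.17 and 11.09 to 9.46, 8.71 and 8.77 (-2.02 ± 0.19), so that 2 receptors of the same hormone moved oppositely. Stra8, a retinoic acid target known for starting meiosis, rose from 6.89, 7.30 and 8.12 to 10.76, 10.22 and 9.90 (2.86 ± 0.33).

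Hox genes rose at the front of the clusters and not at the back. Of 38 measured, 24 were higher and 22 by at least 2-fold. In paralogue groups 1 to 5 all 14 genes were higher, with a median change of 3.31. In groups 6 to 9 it was 9 of 12, with a median of 1.81, and in groups 10 to 13 it was 1 of 12, with 4 lower and a median of -0.23. Hoxa2 rose 33.7-fold (5.96, 5.76 and 5.64 to 10.76, 10.81 and 11.01), Hoxb8 28.6-fold, Hoxa5 27.4-fold and Hoxc5 27.1-fold.

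The point at which the rise stopped differed between clusters. Hoxb9 read 7.34, 7.84 and 7.62 in ESC and 12.04, 11.93 and 12.25 in NPC, a change of 4.47 ± 0.16, whereas the other group 9 genes, Hoxa9 (-0.06), Hoxc9 (0.12) and Hoxd9 (0.07), did not pass. All 10 measured Hoxb genes were higher, against 6 of 10 in Hoxa, 4 of 9 in Hoxc and 4 of 9 in Hoxd. Hoxb13, at the far end of its cluster, had a small rise of 0.69. Hoxc12 fell by 1.41 ± 0.12 and Hoxc13 by 0.87 ± 0.12. The falls of Hoxd10 (-0.38) and Hoxd13 (-0.34) were small, and the count of 4 lower Hox genes dropped to 2 without knockdown ESC replicate 2 or NPC replicate 1.

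**Figure D3:**
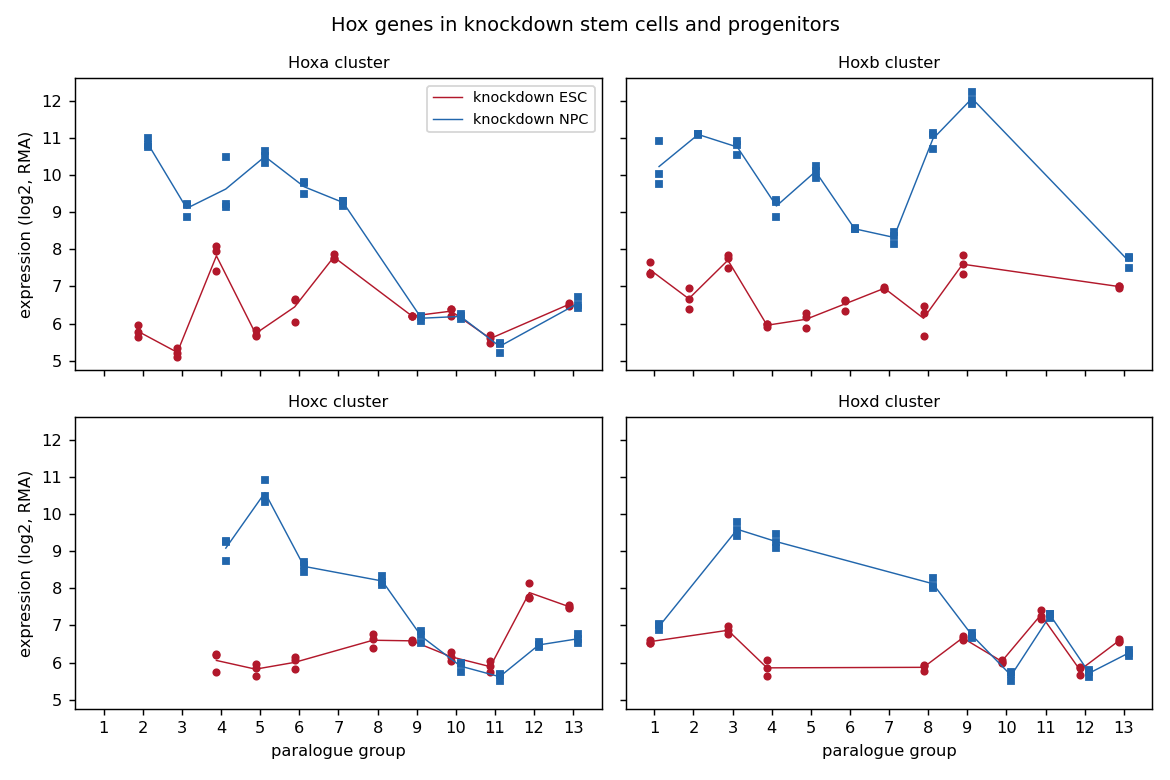
Log2 expression (y axis) of the Hox genes by paralogue group (x axis) in the 4 clusters; circles are the 3 knockdown ESC arrays, squares the 3 knockdown NPC arrays, and lines join their means over the measured genes. NPC lie over ESC in groups 1 to 5 of every cluster, and only Hoxb9 among the group 9 genes is raised.

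Regional genes of the neural tube changed selectively. Among 19 genes of dorsoventral patterning in the spinal cord 7 rose by at least 2-fold. Dbx1, of the intermediate progenitor domain, read 7.46, 7.55 and 7.40 and then 11.81, 12.27 and 12.38 (4.69 ± 0.18), and the dorsal gene Pax3 6.15, 6.35 and 6.11 and then 10.83, 10.71 and 10.85 (4.60 ± 0.12). Irx5 rose by 3.74. In the ventral tube, Shh (-0.07), Nkx2-2 (-0.10) and Nkx6-1 (-0.05) did not pass, and the floor plate gene Foxa2 rose by 0.32 (adjusted p = 0.0116, but up to 0.0613 without knockdown ESC replicate 3 or NPC replicate 2). The calls of Nkx6-2 (-0.34) and Nkx2-9 (-0.61) were each lost without several knockdown arrays, at adjusted p up to 0.167 and 0.128.

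Of 17 forebrain and midbrain genes 4 rose by at least 2-fold and 1 fell. Those that rose included Wnt1 of the midbrain boundary and roof plate (2.95 ± 0.21), Irx1 (2.17) and Pax7 (1.84), genes that the spinal cord expresses too. Hesx1, of the anterior neural plate and of stem cells, fell by 1.59, and Six3, Nkx2-1 and Emx1 (-0.06, -0.11 and -0.17) did not pass. Of 6 hindbrain genes 2 were higher and 2 lower, with a median change of 0.02. Meis3 (2.13 ± 0.10) and Egr2, of rhombomeres 3 and 5 (1.76 ± 0.19), rose, and Fgf3 (-0.38) and Cyp26c1 (-0.28) fell, calls that were lost without single knockdown arrays (adjusted p up to 0.103 and 0.198).

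Transcription factors of neuronal subtypes were divided. Of 31 measured, 9 rose by at least 2-fold and 1 fell. Lhx1 (3.61 ± 0.12), Pax2 (2.53 ± 0.13) and Onecut2 (2.48 ± 0.12) rose, of which Lhx1 and Pax2 mark dorsal and inhibitory interneurons of the cord. Eomes, of cortical intermediate progenitors and of mesendoderm, fell by 1.20 ± 0.21, and Phox2a by 0.75. In the Hedgehog pathway 7 of 9 measured genes were higher, 5 of them by at least 2-fold, and 2 were lower. The co-receptor genes Boc (3.62 ± 0.13) and Gas1 (3.17 ± 0.10) and the decoy receptor gene Hhip (1.99 ± 0.22) rose. The 2 that fell were the transcription factor genes Gli1 (-1.12 ± 0.15) and Gli2 (-1.40 ± 0.16). Gli1 is a usual readout of Hedgehog signalling, the activity of which was not tested. Neural crest genes rose in part: Tfap2b, Tfap2a (2.69) and Ets1 (1.66) were higher, Erbb3 (-1.60) lower, and Sox10 (-0.18) and Snai2 (0.01) did not pass.

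Genes of other germ layers changed in part. Of 20 mesoderm genes 7 were higher and 3 lower, by at least 2-fold only Foxc2 (2.07 ± 0.31) upward and Tcf15 (-1.31 ± 0.09) downward. Of 15 endoderm genes 5 were higher and 2 lower, and 4 rose by at least 2-fold: Foxa1 (1.90), Dab2 (1.51), Cxcr4 (1.46) and Gata6 (1.37). The liver genes Afp (-0.17) and Ttr (-0.13) did not pass. Of 17 fibroblast and mesenchyme genes Prrx1 rose by 1.84, Thy1 fell by 2.04 and fibronectin (Fn1) by 1.34, and the collagen genes Col1a1, Col1a2 and Col3a1 were within 0.09 of 0. Of 12 glial genes the glutamate transporter gene Slc1a2 rose by 2.33, Aldh1l1 fell by 1.75 and Myrf by 1.38, while Aqp4, S100b and Mog did not pass.

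The simple keratins of trophoblast and surface epithelium were spread. Krt18 read 8.77, 7.92 and 7.95 in ESC and 10.53, 10.39 and 10.28 in NPC (2.19 ± 0.39). Krt8 rose by 1.14 ± 0.42 (adjusted p = 0.0364), a call that ended without any of 5 of the 6 knockdown arrays (adjusted p up to 0.149). The trophoblast factors Tfap2c (-3.20) and Tead4 (-2.18), both also expressed in stem cells, fell, and Cdx2 (0.09) did not pass.

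Endothelial genes fell more often than they rose. Of 19 measured, 3 fell by at least 2-fold and 1 rose. Pecam1, an adhesion molecule of endothelium and of stem cells, read 10.35, 10.14 and 10.40 in ESC and 6.57, 6.41 and 5.96 in NPC (-3.98 ± 0.18), and the angiopoietin receptor gene Tek fell by 2.97 ± 0.12. Emcn read 4.97, 5.0 and 4.87 and then 6.64, 6.39 and 5.44 (1.21 ± 0.37, adjusted p = 0.0149), but its adjusted p reached 0.0699 without knockdown NPC replicate 1 or 2. Blood genes had no change of 2-fold.

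Germ cell and meiosis genes, many of which stem cells are known to transcribe, fell in good part: 20 of 34, 16 of them by at least 2-fold. Tdrd12, of the piRNA pathway, read 10.47, 9.48 and 9.18 and then 6.06, 6.30 and 5.43 (-3.77 ± 0.28), and Rpl10l, a testis ribosomal protein gene, fell by 2.63 ± 0.22. Dazl, an RNA-binding protein of early germ cells, read 7.96, 8.10 and 8.68 in ESC and 8.50, 7.87 and 7.75 in NPC (-0.20 ± 0.22). Its 2 states overlapped. Rec8, a meiotic cohesin, rose by 0.81 ± 0.15. Of the 3 measured genes of the 2-cell-like state, Eif1a fell by 0.91, and Usp17la (0.36) and Zfp352 (-0.68) did not pass.

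Genes of DNA replication and mitosis were lower by small amounts. Of 28 measured, 20 fell against 25% of all genes, but only 2 by at least 2-fold, and the median change was -0.34. The spindle checkpoint gene Bub1b read 11.14, 11.07 and 11.16 and then 10.05, 9.91 and 9.99 (-1.14 ± 0.09). Mki67 changed by -1.65 ± 0.56 (adjusted p = 0.026), a call that was lost without any of 5 of the 6 knockdown arrays (adjusted p up to 0.0854). The fit shares 1 spread over all 4 groups, and the control arrays read 9.44, 11.53 and 9.48 in ESC and 9.46 to 11.65 in NPC, with replicate 2 high in both. Ccne2 was the 1 gene of the list that rose, by 0.93.

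Regulators of the G1 phase changed more. Cyclin D2 (Ccnd2) read 8.33, 8.93 and 9.02 and then 12.72, 12.93 and 12.99, a rise of 4.12 ± 0.16 or 17.4-fold, while Ccnd3 fell by 0.56. The inhibitor gene Cdkn1c (p57) rose by 2.95 ± 0.14 and the antiproliferative gene Btg2 by 1.67 ± 0.15. Of 17 genes of the p53 response and apoptosis 1 changed by at least 2-fold, Bcl2 (2.40 ± 0.14), which protects neurons from death.

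Members of the same chromatin complexes moved in opposite directions. Among 27 Polycomb genes 4 rose and 6 fell by at least 2-fold: Yaf2 (2.49 ± 0.11), Bmi1 (1.98 ± 0.10) and Cbx2 (1.17 ± 0.09) rose, and Cbx7 (-1.72 ± 0.18) and Phc1 (-1.71 ± 0.10), subunits typical of stem cells, fell. The 5-methylcytosine dioxygenases also parted. Tet1 read 12.40, 12.19 and 12.09 and then 9.86, 9.71 and 9.89 (-2.41 ± 0.11), Tet2 fell by 1.92 ± 0.16, and Tet3 read 7.87, 8.32 and 8.42 and then 10.71, 10.69 and 10.88 (2.56 ± 0.18). Among 19 BAF remodelling subunits the ATPase gene Smarca2 (2.34 ± 0.18), Smarcc2 (1.29 ± 0.15) and Bcl7a (1.16 ± 0.11) rose and Smarcd2 fell by 1.09 ± 0.14. The progenitor subunit gene Actl6a (BAF53a) fell by 0.52.

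Enzymes of H3K4 methylation moved modestly. Of 17 measured, 1 changed by at least 2-fold, Wdr5, a core subunit of the methyltransferase complexes (-1.08 ± 0.10). Kmt2b fell by 0.82 ± 0.24. Kdm5a, the closest relative of Kdm5b, read 9.24, 9.38 and 9.45 in ESC and 10.14, 10.05 and 10.20 in NPC, a rise of 0.78 ± 0.11 (adjusted p = 6.09e-05). The states did not overlap for Kdm5a.

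Of 19 RNA regulators of the step from progenitor to neuron 13 rose and 3 fell. Rest, the repressor of neuronal genes, fell from 12.28, 12.24 and 12.14 to 10.81, 10.50 and 10.70 (-1.55 ± 0.10). Srrm4, the neuronal splicing activator, rose 11.6-fold (3.54 ± 0.11), and the neuronal splicing repressor Ptbp2 rose by 1.69 ± 0.10. The let-7 antagonists parted: Lin28a fell by 1.78 ± 0.13 and Lin28b rose by 1.37 ± 0.18, from 7.18, 7.42 and 7.44 to 8.42, 8.90 and 8.81.

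Imprinted genes rose widely. Of 16 measured, 13 rose by at least 2-fold and the median change was 1.73. Igf2 read 7.99, 7.33 and 7.23 and then 12.17, 11.90 and 11.58 (4.37 ± 0.39, 20.7-fold), Nnat rose by 3.04 ± 0.44 and Dlk1 by 2.96 ± 0.13. The maternally expressed non-coding RNA Meg3, of the same domain as Dlk1, fell by 1.31 ± 0.30, so that the 2 went apart. The fall of Igf2r (-0.38) was lost without several knockdown arrays (adjusted p up to 0.109).

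In metabolism, 8 of 9 sterol synthesis genes rose, 4 of them by at least 2-fold, led by Cyp51 (1.84 ± 0.13) and Sc5d (1.63 ± 0.11). Glycolysis and hypoxia genes had no common direction, with 6 higher and 6 lower of 21. The phosphofructokinase gene Pfkp fell by 2.13 ± 0.14 and hexokinase Hk2 by 1.54 ± 0.14, and Vegfa rose by 0.71 ± 0.14.

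The same passage in control cells was very similar in outline. Across the 18784 genes the changes in knockdown and in control cells, which share no array, correlated at r = 0.934 and rho = 0.857; this is across genes, which are not independent replicates. Control cells had 1551 rises and 1380 falls of at least 2-fold. There were 2265 genes called with at least 2-fold in both, all in the same direction. These are 82.2% of the knockdown set and 77.3% of the control set. With changes of any size, 7302 genes were called in the same direction in both and 23 in opposite directions.

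**Figure D4:**
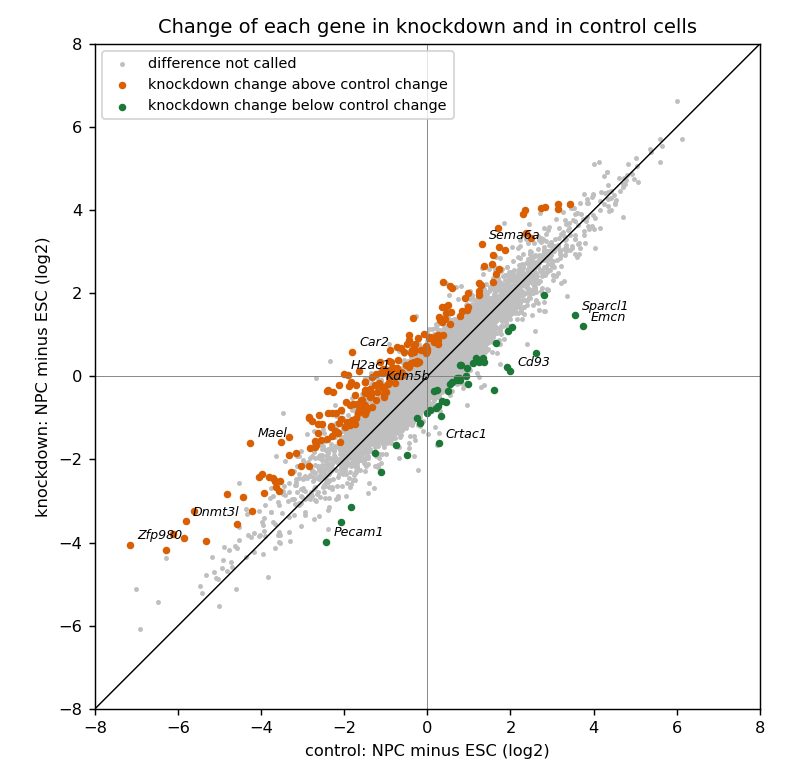
Change of each of 18784 genes from ESC to NPC in control cells (x axis, log2) and in knockdown cells (y axis, log2), with the line of equal change. Orange and green points passed the test of the difference, with the knockdown change above (221 genes) or below (46 genes) that of control. Most orange points lie at the left, where genes fell less in knockdown cells.

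The test of the difference of the 2 changes called 267 genes. There were 221 (1.18% of genes) with the knockdown change above that of control and 46 (0.245%) below it. The share above was 82.8%, and it became 71.1% with arrays centred on their median and 71.4% after quantile normalization. In 98 of the 267 the gene fell in both kinds of cell and in 53 it rose in both. In 16 it was called in opposite directions, in 38 only in knockdown cells and in 62 only in control cells. In 170 the change was smaller in the knockdown and in 97 larger. The count depended on single arrays: it was 35 without knockdown NPC replicate 2, 40 without control ESC replicate 3, 45 and 75 without knockdown ESC replicates 3 and 2, 71 without knockdown NPC replicate 1, 97 without control NPC replicate 2 and 546 without control ESC replicate 1. It was 151, 154 and 176 without control ESC replicate 2, knockdown ESC replicate 1 and knockdown NPC replicate 3. With the replicate number as a block, as the control arrays pair by number, 152 genes were called, and 16 of the 46 named differences were lost: Cdh5, Cldn6, Crmp1, Dppa5a, Efnb2, Emcn, En2, Hoxc13, Lama1, Msx2, Ncam1, Nkx2-9, Peg10, Slc2a3, Sox11 and Srebf2. The named differences that were kept without each array in turn were 11 of 46: Boll, Car2, Cd93, Ddx4, Dnmt3l, H2ac1, Mael, Meioc, Perp, Tcf15 and Zfp979.

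Germ line and transposon control genes were prominent among them, chosen by rule for their size. Mael, of the piRNA pathway, read 9.73, 9.07 and 8.94 in knockdown NPC and 6.32, 6.89 and 6.83 in control NPC, from like levels in ESC (10.69 to 11.08 and 10.78 to 11.19). Its change was -1.60 in knockdown and -4.26 in control cells, a difference of 2.66 ± 0.29 (adjusted p = 0.00227). Dnmt3l, cofactor of the de novo DNA methyltransferases, fell by 3.49 and in control cells by 5.81, a difference of 2.33 ± 0.33. Of the germ cell list 6 of 34 genes passed with the knockdown above control, against 1.18% of all genes, and none below. The lists were chosen with earlier results of these data known. Such shares, here and for the other lists, are therefore descriptions and no test. The 4 germ cell markers (Dazl, Ddx4, Mael and Stra8) averaged 8.44 to 9.22 in knockdown NPC and 6.35 to 6.98 in control NPC, with no overlap. ESC of both kinds lay between 8.36 and 9.11. Dazl, Ddx4 and Mael were themselves called for the difference, so this average restates their calls in part.

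Other genes of this kind also changed less in knockdown cells. The germ line RNA-binding gene Boll had a change of -0.35 in knockdown and -2.42 in control cells, and the meiosis gene Meioc -0.32 and -2.40. The testis histone gene H2ac1 stayed at 11.84 to 12.14 in knockdown NPC and was at 9.97 to 10.20 in control NPC (difference 2.07 ± 0.22, adjusted p = 0.00227). Ddx4, the Vasa helicase of germ cells, had a change of -1.08 against -2.77. The zinc finger gene Zfp979 fell in both, by 4.17 and by 6.28 (difference 2.11 ± 0.16, adjusted p = 0.000206). It read 5.58 to 5.98 in knockdown NPC and 3.70 to 4.03 in control NPC. These NPC values lay near or below the lower quartile of the arrays (5.84 to 6.11), so they may be background.

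In part, the difference lay in the stem cells. Carbonic anhydrase 2 (Car2) read 9.93, 9.15 and 8.90 in knockdown ESC and 11.17, 10.95 and 11.37 in control ESC, and 9.73 to 10.04 and 9.16 to 9.67 in the NPC. The difference of the changes was 2.41 ± 0.32. Perp, a desmosomal target of p53, was likewise lower in knockdown ESC (9.39 to 9.82 against 10.55 to 11.16) and higher in knockdown NPC (9.04 to 9.30 against 8.29 to 8.85). The paraxial mesoderm gene Tcf15 fell by 1.31 in knockdown and 2.23 in control cells. For N-cadherin the rise was larger in knockdown cells (4.02 against 3.15, difference 0.87 ± 0.16, adjusted p = 0.0239). It started from a lower ESC level (7.85 to 8.14 against 8.90 to 9.19), and this call was lost without control ESC replicate 3, knockdown ESC replicate 3 or knockdown NPC replicate 2 (adjusted p up to 0.0715).

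Of the pluripotency list 7 of 35 genes passed with the knockdown change above control, among them Dppa2 (-3.79 against -6.13) and Dppa5a (-3.25 against -5.62). Their calls were lost without 3 and 10 of the 12 arrays. Pou5f1 and Nanog fell by 6.50 and 7.0 in control cells, and their differences, 1.06 ± 0.35 (adjusted p = 0.168) and 1.88 ± 0.74 (adjusted p = 0.244), did not pass. The 6 stem cell markers, Dppa5a among them, averaged 7.23 to 8.29 in knockdown NPC and 6.33 to 7.14 in control NPC. What share of this came from remaining stem cells was not tested.

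Endothelial genes lay on the opposite side. Of 19 measured, 5 passed with the knockdown change below that of control, against 0.245% of all genes, in a list also chosen with earlier results known. Cd93 read 5.57, 5.32 and 5.18 in knockdown NPC and 6.58, 7.12 and 7.56 in control NPC, from about 5 in both ESC, a difference of -1.87 ± 0.28 (adjusted p = 0.0143). Its knockdown NPC and ESC values lay below the lower quartile of the arrays (5.84 to 6.11) and may be background. Emcn rose by 1.21 in knockdown and by 3.75 in control cells and Cdh5 by 0.57, which did not pass, and by 2.62. The calls of Emcn and Cdh5 were each lost without 9 of the 12 arrays (adjusted p up to 0.0998 and 0.103). The 6 endothelial markers include Pecam1, Cdh5 and Emcn, whose differences were called, so their average restates those calls in part. It was 6.23 to 6.68 in knockdown NPC and 7.11 to 8.10 in control NPC, with no overlap. Control NPC replicate 1 was lowest of its group. The part that endothelial cells in the cultures had in these differences was not tested.

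At most 2 genes of each neural list passed the test of the difference. Of all genes 1.18% passed above and 0.245% below control, and in lists this short 1 gene is already a larger share. Of the 34 progenitor genes 2 passed, Cdh2 (above) and Ncam1 (below), and of 28 proneural genes 1, Sox11 (4.15 against 3.44). For the 38 Hox genes it was 1, Hoxc13 (-0.87 against -1.66), and for the 19 retinoic acid genes none. Of 34 axon guidance genes 2 passed, Sema6a (1.87) and Efnb2 (1.32), of 19 dorsoventral genes 2, Nkx2-9 (1.34) and Msx2 (1.22), of 46 neuronal genes 2, Crmp1 (1.07) and Vamp2 (-0.73), and of 17 forebrain and midbrain genes 1, En2 (1.32), each given as the knockdown minus the control change. The list medians in knockdown and control cells were 2.28 and 2.30 for progenitor genes, 1.85 and 1.48 for proneural genes, 0.86 and 0.94 for neuronal genes and 1.70 and 1.60 for Hox genes. The calls of Ncam1, Sox11 and Hoxc13 were lost without 7, 11 and 10 of the 12 arrays. A difference that missed the threshold does not show that the changes were equal.

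**Figure D5:**
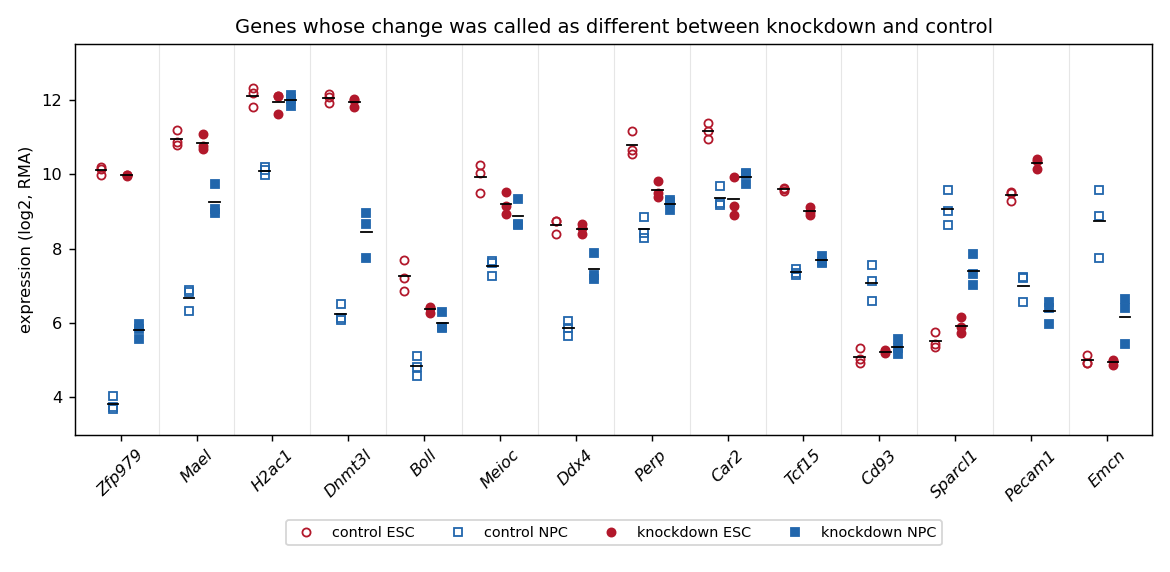
Log2 expression (y axis) in the 12 arrays of 14 genes whose change passed the test of the difference; open symbols are control and filled symbols knockdown arrays, circles ESC and squares NPC, and short bars are means of 3 arrays. Mael, Dnmt3l and H2ac1 are higher in knockdown NPC than in control NPC, and Cd93, Sparcl1 and Emcn are lower.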

How the data were processed

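Total RNA of 12 samples was hybridised to Affymetrix MoGene 1.0 ST arrays. The deposited values are log2 expression after RMA, which the authors made with affy and limma per the submitters' processing notes, with no version in the labels. RMA forces like distributions on all arrays and compresses large differences, and no detection calls were used, so values near the lower quartile may be background. Of 21212 probe sets 18786 had 1 symbol, 6 several and 2420 none. They gave 18784 genes, of which no symbol changed on matching to RefSeq.

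A model with 4 group means over the 12 arrays was fitted in limma 3.58.1 (R 4.3.3) with p-values adjusted by Benjamini-Hochberg over all genes (residual degrees of freedom 8, prior 4.81). Calls have adjusted p under 0.05, and "2-fold" adds an absolute log2 change of at least 1. The number of arrays limits the precision. On simulated data with 200 of 18784 genes changed, log2 changes of 0.5, 1 and 2 were recovered in 42%, 93.5% and 99.5% of cases for the knockdown change and in 0.5%, 73% and 98.5% for the difference of changes. The simulated noise was independent between arrays, without pairing by replicate number. Far more genes, 9164, were called for the knockdown change in the data. The adjusted cut-off depends on how many genes change, so the shares for that change do not carry over directly.

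Genes were named by a rule: the 12 largest changes each way, the 10 largest differences each way, up to 3 rises, 2 falls and 2 differences per list, the 5 largest changes each way outside the lists, and a short set of textbook genes. The members, lists and rule were chosen with earlier results of these data known. Alternatives were another filter, scaling, variance model, probe set rule and threshold, a replicate block, and each array left out. The labels number the arrays alike in all groups. The numbers paired the control arrays by their correlation but not all knockdown arrays. The block is therefore given as an alternative and is not part of the main fit.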

Additional observations from a re-analysis of the deposited data

Results flagged for a closer look

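The following 46 named genes changed differently between ESC and NPC in knockdown and in control cells by limma's test of the difference. Values are the knockdown change minus the control change on the log2 scale. A positive value is a smaller fall or a larger rise in knockdown cells, or a rise where control cells fell.

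Genes of the germ line with a positive difference were Mael (2.66), Meioc (2.08), Boll (2.07), H2ac1 (2.07), Slc25a31 (1.95), Dazl (1.91) and Ddx4 (1.68). Genes of the pluripotent and formative states were Dppa5a (2.38), Dppa2 (2.34), Dnmt3l (2.33), Sall2 (1.16) and Cldn6 (1.15). The zinc finger genes Zfp980 (3.10) and Zfp979 (2.11) had positive differences too, that of Zfp980 being the largest of the 46.

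Genes of the neural and Hox lists with a positive difference were Sema6a (1.87), Nkx2-9 (1.34), Efnb2 (1.32), En2 (1.32), Msx2 (1.22), Crmp1 (1.07), Cdh2 (0.87), Hoxc13 (0.79) and Sox11 (0.71). Not all of them rose: Hoxc13 fell in both kinds of cell (-0.87 against -1.66), and Nkx2-9 changed by -0.61 in knockdown cells. Other genes with a positive difference were Car2 (2.41), Perp (1.90), Btg2 (1.24), Kdm5b (0.96), Tcf15 (0.91), Trp53inp1 (0.84), Peg10 (0.72) and the glucose transporter gene Slc2a3 (0.56).

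Endothelial genes with a negative difference were Emcn (-2.53), Cdh5 (-2.05), Cd93 (-1.87), Pecam1 (-1.55) and, known from endothelium though in no list, Sparcl1 (-2.08) and Rhoj (-1.70). The remaining negative differences were those of Rasgrp3 (-1.93), Crtac1 (-1.88), Pgc (-1.41), Cfp (-1.40), Hbb-y (-1.15), Lama1 (-0.97), Ncam1 (-0.92), Vamp2 (-0.73) and Srebf2 (-0.52). Of the 46 calls 35 were lost when 1 or another of the 12 arrays was left out.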

How the results depend on the processing

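The count of genes changed in knockdown cells, 9164, lay between 7270 and 10436 under all alternatives that kept every array except a 2-fold minimum, which left 2754, and between 8103 and 8497 without 1 array. The control count, 9122, lay between 8446 and 8965 without 1 array. The count for the difference of the changes, 267, was less stable: 955 with array weights, 18 at a threshold of 0.01, 133 with a 2-fold minimum, and 35 to 546 without 1 array. By the correlation of same-numbered deviations the replicate numbers paired the control arrays (0.266, 0.286 and 0.334, each array correlating best with its own number) but not all knockdown arrays (0.122, 0.19 and -0.0336). A replicate block gave 9172 knockdown genes, 9176 control genes and 152 differences, and 16 of the 46 named differences were lost with it, as were the knockdown calls of Nkx6-2 (adjusted p = 0.0536) and Cyp26c1 (0.0609). The cause of these shifts was not tested. Centring on medians moved the median change of all genes from -0.07 to -0.12 and the share of rises from 48.8% to 43.3%. No change of a named gene that was called changed direction in any alternative; some uncalled changes near 0 crossed it without 1 array, such as that of Dazl in knockdown cells (-0.43 to 0.01). Of 223 named knockdown calls 202 were kept without each array.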

Other observations

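The families below were chosen after their values were seen and are given as values of the change from ESC to NPC in knockdown cells. Their counts are to be read against 23.8% of all genes higher and 25% lower. Of 10 Frizzled receptor genes 8 rose and 1 fell: Fzd3 (4.17 ± 0.15, SE), Fzd8 (3.32 ± 0.13) and Fzd2 (2.63 ± 0.13) rose the most and Fzd5 fell by 1.99 ± 0.14. Of 6 Iroquois genes 5 rose, Irx5 (3.74), Irx3 (2.75), Irx2 (2.45), Irx1 (2.17) and Irx6 (1.09), while Irx4 (-0.05) did not pass. Synaptic receptor and adhesion genes were up in part: 8 of 14 ionotropic glutamate receptor genes rose, 4 of them by at least 2-fold, with Gria3 at 2.17 ± 0.20 and Grik2 at 1.97 ± 0.09. The 2 that fell were Grik3 (-1.50 ± 0.16) and Grin2c (-0.31 ± 0.10). All 5 measured neurexin and neuroligin genes rose, 2 of them by at least 2-fold, Nrxn3 (2.19 ± 0.14) and Nlgn1 (1.58 ± 0.20). Of 13 nicotinic receptor genes 6 rose, among them Chrna3 (5.72), Chrna5 (3.17) and Chrnb4 (2.67), which lie side by side in 1 cluster. Chrna9 was the 1 that fell (-1.95 ± 0.15).

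Of 10 laminin genes 7 fell, 3 of them by at least 2-fold: Lamc1 (-1.69 ± 0.13), Lama5 (-1.49 ± 0.14) and Lamb1 (-1.28 ± 0.18), chains of basement membrane laminin. Lamb2 was the 1 that rose (0.40). Of 19 ribosome assembly genes of the Nop and Utp series 10 fell and none rose, but only 1 fell by at least 2-fold, Utp14a (-1.68). Utp20 was at -0.94. Of 10 glutathione transferase genes 6 fell, 4 of them by at least 2-fold and Gstm3 the most (-2.47). The 2 that rose were Gstm5 (2.15) and Gstm7 (0.95). Of 19 tetraspanin genes 11 rose, 6 of them by at least 2-fold, with Tspan12 at 2.53, and 1 fell, Tspan32 (-0.64).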
